A study of Mus musculus with 12 samples.

Results

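The data described here concern 10 mouse genes that encode inhibitors of MAP kinase signalling: the Sprouty genes Spry1, Spry2 and Spry4, the Spred genes Spred1 and Spred2, and the dual-specificity phosphatase genes Dusp1, Dusp4, Dusp5, Dusp6 and Dusp10. They are 10 of the 21938 protein-coding genes of the GENCODE M21 basic annotation of mm10, and they were listed for their known role. The list was also selected on measured values, namely the hypoxia-only H3K27ac calls around Spry2 and Dusp10, which were known when it was drawn up. The comparison of H3K27ac between oxygen levels at these genes was therefore part of the choice and is given as a description. For each gene, every called interval in the gene body and 20000 bp on each side was read, which gave 27 of the 22555 distinct intervals of the study. The hypoxia-only H3K27ac intervals whose nearest protein-coding start is Spry2 or Dusp10 were also read, and there were 3.

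The study asked how long exposure to atmospheric oxygen affects chromatin and fate in mesenchymal stem cells (MSCs). MSCs from C57BL6/N mice of 3 to 5 months, grown from collagenase-digested bone and sorted as CD45-/TER-119-/CD140a+/Sca-1+, were kept in α-MEM at 2% oxygen (hypoxia) or 21% oxygen (normoxia). All cells had been cultured at 2% oxygen before they were divided between the oxygen levels, so the normoxia cells had also passed through hypoxia. DNA bound to a marked histone was immunoprecipitated and sequenced (ChIP-seq) for H3K27ac (acetylated lysine 27 of histone H3, found at active promoters and enhancers) and H3K4me3 (trimethylated lysine 4, found at promoters), with chromatin that was not precipitated as input, in 12 libraries, 2 for each mark or input at each oxygen level. The deposited files hold 1 peak list per mark and oxygen level, into which both libraries of that group went, so no spread between libraries could be computed and no difference between oxygen levels could be tested. The study describes its H3K27ac libraries as coming from biologically independent experiments. The labels call the cells bone-marrow MSCs, and the read depth is not known from these files.

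Growth factor receptors signal through Ras, Raf, MEK and ERK, and ERK in turn switches on genes whose products shut the pathway down again. Sprouty and Spred proteins act near the membrane and hold back the step from receptor to Ras and Raf. The Dusp proteins remove the activating phosphates from the MAP kinases themselves, Dusp5 and Dusp6 mainly from ERK, Dusp1 and Dusp4 from several MAP kinases, and Dusp10 mainly from JNK and p38, so that Dusp10 is a brake on MAP kinases more than on ERK in particular. In skeletal progenitors this pathway carries fibroblast growth factor signals, which bear on proliferation and bone formation.

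An H3K27ac interval was called shared when the lists of both oxygen levels held it, hypoxia-only or normoxia-only when a single list held it. Of 15421 H3K27ac intervals in the genome, 589 (3.82%) were hypoxia-only and 218 (1.41%) normoxia-only. The score in the lists is the authors' own value per interval, whose definition is not given in the sources used here; it ran from 50 to 160, with the remaining intervals at 1000. The labelled cell type was read from markers at their transcription starts. Of 11 MSC markers 10 had H3K4me3 and 8 had H3K27ac at a start, Pdgfra among those with both, while Eng, Lepr and Nt5e had H3K4me3 alone and Ly6a H3K27ac alone. The blood cell marker Ptprc had neither mark at a start. Of 4 endothelial markers, 1 (Kdr) had H3K4me3 and 0 had H3K27ac.

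The sequences on which the condition-specific calls rest are shown first. They are the central 300 bases of the 3 hypoxia-only intervals, read from the plus strand of mm10, with any match to a searched motif in capitals. In all, 6 motifs were searched on both strands: the HIF core ACGTG, the AP-1 site TGANTCA, the cAMP response element TGACGTCA, the ETS site CCGGAA, the RUNX site TGTGGT and the CArG box bound by serum response factor. The AP-1 site TGAATCA in the interval at the end of Spry2 was the only match in these 3 windows, and 8.05% of all H3K27ac intervals held an AP-1 site in their central 300 bases.
Spry2, end of gene, chr14:105890601-105890900: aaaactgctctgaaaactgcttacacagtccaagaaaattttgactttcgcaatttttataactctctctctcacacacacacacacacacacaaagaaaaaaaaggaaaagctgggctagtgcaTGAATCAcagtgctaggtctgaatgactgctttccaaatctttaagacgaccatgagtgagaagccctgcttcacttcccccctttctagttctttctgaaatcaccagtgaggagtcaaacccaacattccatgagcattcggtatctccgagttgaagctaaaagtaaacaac
Spry2, distal, chr14:105732351-105732650: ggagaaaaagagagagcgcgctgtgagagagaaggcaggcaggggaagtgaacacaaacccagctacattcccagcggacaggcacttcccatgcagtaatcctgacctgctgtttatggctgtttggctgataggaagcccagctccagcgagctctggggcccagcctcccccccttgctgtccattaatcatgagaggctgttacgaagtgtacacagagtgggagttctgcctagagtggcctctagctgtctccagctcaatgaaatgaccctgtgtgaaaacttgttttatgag
Dusp10, past the gene, chr1:184083101-184083400: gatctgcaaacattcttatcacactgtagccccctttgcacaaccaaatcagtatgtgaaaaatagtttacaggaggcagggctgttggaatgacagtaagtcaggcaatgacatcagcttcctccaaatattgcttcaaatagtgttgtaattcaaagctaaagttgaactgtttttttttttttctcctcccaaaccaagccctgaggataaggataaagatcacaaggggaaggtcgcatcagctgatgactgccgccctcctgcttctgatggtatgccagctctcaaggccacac

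Promoter sequences are shown for 3 members. Spry1 and Spry2 are a pair of Sprouty genes that differed in H3K27ac at the start. Dusp1 had the largest share of its window under H3K27ac, with intervals of its neighbours included. The sequences are the bases just before an annotated start (for Dusp1 the middle of its 3 starts), 5′ to 3′ on the strand of the gene. They are from the RefSeq promoter table of GRCm38.p6, again with motif matches in capitals. The Dusp1 promoter held a full cAMP response element and, shortly after it, the palindrome CACGTG, which contains the HIF core on both strands. Across all 32851 promoter windows in the table, each of 300 bases, 1.79% held the cAMP response element and 19.6% the HIF core. A match is a description of letters and was not tested for binding.
Spry1, chr3:37639697-37639946: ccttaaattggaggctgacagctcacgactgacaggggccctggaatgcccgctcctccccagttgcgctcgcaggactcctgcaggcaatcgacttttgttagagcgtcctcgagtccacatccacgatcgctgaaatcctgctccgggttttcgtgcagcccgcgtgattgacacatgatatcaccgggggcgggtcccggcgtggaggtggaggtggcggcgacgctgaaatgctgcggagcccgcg
Spry2, chr14:105896820-105897069: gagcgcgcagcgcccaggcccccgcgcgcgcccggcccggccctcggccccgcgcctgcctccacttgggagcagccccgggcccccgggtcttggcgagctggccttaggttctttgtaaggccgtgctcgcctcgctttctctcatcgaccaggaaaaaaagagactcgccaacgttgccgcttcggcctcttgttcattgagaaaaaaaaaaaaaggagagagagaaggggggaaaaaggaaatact
Dusp1, chr17:26508520-26508722: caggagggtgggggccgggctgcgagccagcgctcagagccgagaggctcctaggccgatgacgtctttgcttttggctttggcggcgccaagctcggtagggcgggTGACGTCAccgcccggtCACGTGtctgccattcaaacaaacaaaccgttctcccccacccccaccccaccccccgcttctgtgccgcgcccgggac

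The promoter table held 8 of the 10 members, and Spry4 and Dusp4 had no entry. The promoters of these 8 genes had a GC content of 57.0% (Spred2) to 72.3% (Spred1) and 17 to 40 CpG dinucleotides, against a median over all promoters of 52.7% and 7. Spred1 and Dusp5 each held 1 HIF core, and Dusp5 held 2 CArG box matches, which 1.63% of promoters held at all. Spry2 held 1 ETS site, in the 50 bases after the start that are not shown, beside 14.9% of all promoters. Spry1, Spred2, Dusp6 and Dusp10 held no match to any of the 6 motifs, and no member promoter held the AP-1 or the RUNX site, which 7.81% and 16.8% of promoters held.

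All 10 genes carried H3K4me3 within 1000 bp of a transcription start at both oxygen levels, as did 58.9% of protein-coding genes. H3K27ac was called at the start of 8 of the 10 genes, against 37.7% of all protein-coding genes and 62.0% of those with H3K4me3 at a start. The exceptions were Spry1 and Spry4, whose starts had H3K4me3 alone. The 5 Dusp genes all had both marks at a start, and of the 5 Sprouty and Spred genes 3 had both. The call at the start was the same in hypoxia and normoxia for each of the 10 genes and both marks.

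H3K4me3 scores could not separate the oxygen levels, because each of the 14600 shared H3K4me3 intervals of the genome (100.0%) had the same score in both lists. At the members' starts this score was 124 at Spred1, 126 at Dusp4, 128 at Spry4, 129 at Dusp1, 130 at Spry2, 133 at Spred2 and Dusp6, 134 at Dusp5 and 1000 at Spry1 and Dusp10. The genome-wide median was 129. Spry1, which had no H3K27ac in its window, was thus at the top H3K4me3 score, which 2065 of 14606 intervals of the hypoxia list reached.

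**Figure D1:**
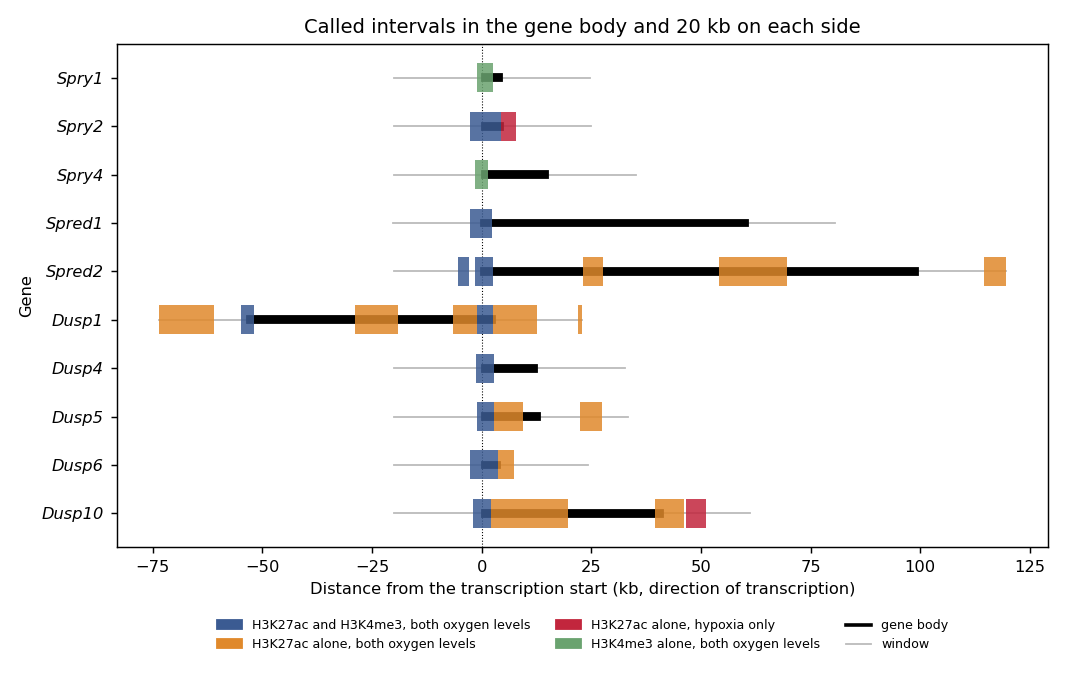
Called intervals in the window of each of the 10 genes (rows), placed by distance from the transcription start in kb along the direction of transcription (horizontal axis). Black bars are gene bodies, grey lines the windows at whose edges intervals are cut off, and colours give the marks and oxygen levels. For Dusp1 the start is the middle of 3 annotated starts. The 2 red intervals, called in hypoxia only, lie at the ends of Spry2 and Dusp10, and Spry1 and Spry4 have H3K4me3 alone.

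Of the 10 windows, 2 held a hypoxia-only H3K27ac interval, those of Spry2 and Dusp10, and 0 held a normoxia-only one. Over all protein-coding genes the shares were 4.66% and 1.15%. These intervals were in view when the genes were listed, so nothing about the set can be read from this count. The interval of Spry2 reached into the gene body and that of Dusp10 began 5365 bp beyond it. Among the 8 genes with no such interval in the window, the nearest hypoxia-only interval was 108 kb from Dusp1, followed by 199 kb for Spred2 and 487 kb for Dusp5. For Spry1, Spred1, Spry4, Dusp6 and Dusp4 it was 1240, 1350, 1840, 3540 and 6040 kb away.

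Spry2 (ENSMUSG00000022114.5, chr14:105891947-105896819, minus strand) encodes a Sprouty protein induced by growth factors. Its start lay in a shared interval of 7000 bp, chr14:105892501-105899500, that covered most of the gene and carried both marks. H3K27ac scored 1000 there in hypoxia and in normoxia, which is the top of the scale, and H3K4me3 scored 130 in both, so the scores could not show a difference at the start. Of all H3K4me3 intervals, 1.42% were as wide. The hypoxia-only interval, chr14:105889001-105892500, was 3500 bp wide and touched the shared one at the 3′ end of the gene. Of these, 554 bp lay over the 3′ untranslated region and 2946 bp beyond the gene. It had no H3K4me3, and its H3K27ac score was 56, at or above that of 8.5% of the intervals in the hypoxia list. With it, H3K27ac covered 10500 bp of the window in hypoxia and 7000 bp in normoxia, or 23.4% and 15.6% of the window.

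A second hypoxia-only interval assigned to Spry2 lay far from it. It spanned chr14:105731501-105733500 (2000 bp), with its near edge 163 kb past the start in the direction of transcription, in sequence between genes, and carried no H3K4me3. Its score of 72 was at or above that of 78.9% of the hypoxia-only intervals, whose median was 58, but of only 24.4% of the whole hypoxia list. The nearest normoxia H3K27ac interval was 141000 bp away. Spry2 was its nearest protein-coding start, whereas among starts of all gene types the nearest was that of Gm10076, a lincRNA, at 49673 bp. The assignment by distance does not show which gene the interval acts on.

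The other H3K27ac intervals nearest Spry2 were shared. One lay 81.7 kb upstream of the start and scored 52 at both oxygen levels, and one lay 306 kb past it and scored 137 in hypoxia and 130 in normoxia, the latter over the start of the noncoding gene 9330188P03Rik. With 5 H3K27ac intervals nearest its start, Spry2 had as many as or more than 97.4% of the genes that had any. Spred2 and Dusp1 also had 5. Of the 5 at Spry2, 2 were the hypoxia-only calls that were in view when the genes were listed. Nothing about Spry2 can therefore be read from this rank. A gene with 3 such intervals, such as Dusp5, was at 91.3%.

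**Figure D2:**
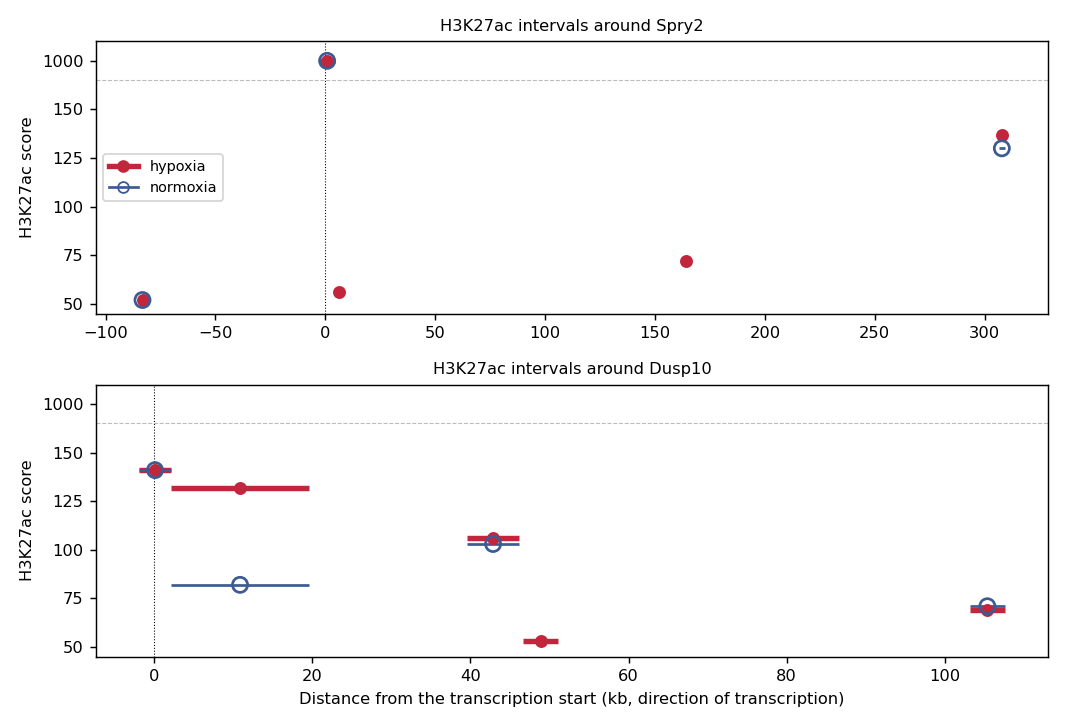
H3K27ac score (vertical axis, no unit, with 1000 drawn above a dashed break) of the intervals around Spry2 and Dusp10 against distance from the transcription start in kb in the direction of transcription (horizontal axis). Filled red marks are hypoxia, open blue marks normoxia, and bars give the width of an interval. A red mark without a blue one is a hypoxia-only interval, of which Spry2 has 2 and Dusp10 has 1, with scores of 56, 72 and 53.

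Spry1 (ENSMUSG00000037211.12, chr3:37639947-37644598, plus strand), a Sprouty gene known from kidney development, had 1 interval in its window. This was H3K4me3 over the start, chr3:37639001-37642500, scoring 1000 at both oxygen levels. The H3K27ac intervals with Spry1 as their nearest protein-coding start lay upstream. The nearer was 51.9 kb from the start with 56 in hypoxia and 63 in normoxia. The farther was 81.4 kb from it with 69 and 77, and it covered the start of Gm12564. Both intervals were shared and both had the lower score in hypoxia.

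Spry4 (ENSMUSG00000024427.7, chr18:38586247-38601415, minus strand), a feedback inhibitor of fibroblast growth factor receptor signalling, also had H3K4me3 alone. The interval, chr18:38600001-38603000, scored 128 in both lists. No H3K27ac interval of either list had Spry4 as its nearest protein-coding start. Among the members it was the only such gene.

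Spred1 (ENSMUSG00000027351.14, chr2:117121374-117182279, plus strand) encodes an inhibitor that brings neurofibromin, a Ras inactivator, to the membrane. It had a single interval of 5000 bp over its start, chr2:117119001-117124000, with H3K27ac at 1000 and H3K4me3 at 124 at both oxygen levels. H3K27ac covered 4.96% of its window, the lowest share among the 8 members with any. The next H3K27ac interval assigned to it lay 101 kb upstream and scored 90 in hypoxia and 89 in normoxia.

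Spred2 (ENSMUSG00000045671.17, chr11:19924375-20024026, plus strand), its close relative, had 5 H3K27ac intervals in its window, all shared. The interval over the start, chr11:19923001-19927000, scored 129 in hypoxia and 116 in normoxia. A smaller one 2875 bp upstream of it in the direction of transcription, chr11:19919001-19921500, scored 128 and 107, and both also carried H3K4me3 at 133. Of the intronic intervals, the one of 4500 bp at chr11:19947501-19952000 scored 66 in both lists and the one of 15500 bp at chr11:19978501-19994000 scored 86 and 83. The interval past the gene end, chr11:20039001-20047000, scored 64 and 65. The promoter-side intervals of Spred2 thus had higher values in hypoxia, whereas those in and past the gene body were within 3 score units of each other. Another shared interval, 87.9 kb upstream, scored 125 in hypoxia and 87 in normoxia.

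Dusp1 (ENSMUSG00000024190.7) encodes a nuclear phosphatase that is an immediate early gene product. It is annotated at chr17:26505590-26562128 on the minus strand because 1 of its 3 starts lies far upstream, next to the divergent gene Ergic1, whereas the other starts are at 26508472 and 26508519. Its window held 7 H3K27ac intervals with touching ones counted apart, the most of any member. H3K27ac covered 45539 bp or 47.2% of the window at both oxygen levels, part of it from an interval within the neighbouring Ergic1. Of the 7 intervals, 3 touching ones formed a run of 19000 bp from chr17:26496001 to 26515000 around the short gene. They scored 128 past the gene end, 129 over the start and 128 upstream in hypoxia, and 128, 129 and 129 in normoxia. A further interval of 10000 bp, chr17:26527501-26537500, scored 129 in both.

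The remaining Dusp1 intervals belong in part to its neighbours. The interval over the far start, chr17:26560501-26563500, also covered the Ergic1 start and scored 121 in hypoxia and 95 in normoxia. The one of 54000 bp, chr17:26569501-26623500, lay within Ergic1 and scored 129 in both lists, and 0.454% of H3K27ac intervals were as wide. The last, chr17:26484001-26486500, lay 19090 bp past the end of Dusp1, within the lincRNA gene AC122252.2, and scored 91 in hypoxia and 70 in normoxia. The intervals around the usual Dusp1 start thus had scores within 1 unit of each other. Those with higher scores in hypoxia lay over the far Dusp1 start and 19090 bp past the gene end.

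Dusp4 (ENSMUSG00000031530.6, chr8:34807297-34819894, plus strand), a nuclear phosphatase for ERK and other MAP kinases, had a single interval, chr8:34806001-34810000, over its start. H3K27ac scored 88 at both oxygen levels, the lowest value among the 8 acetylated starts, and H3K4me3 scored 126. No other H3K27ac interval had Dusp4 as its nearest start.

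Dusp5 (ENSMUSG00000034765.6, chr19:53529109-53542431, plus strand), a nuclear phosphatase specific for ERK, had 3 shared H3K27ac intervals over 29.1% of its window. The interval at the start, chr19:53528001-53532000, scored 155 in both lists. The touching one inside the gene, chr19:53532001-53538500, scored 138 in hypoxia and 145 in normoxia, which was the lowest difference in the members' 20000 bp windows at -7. The interval past the gene, chr19:53551501-53556500, scored 80 and 75. A normoxia-only H3K27ac interval lay 108 kb from Dusp5, closer than to any other member.

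Dusp6 (ENSMUSG00000019960.8, chr10:99263231-99267489, plus strand), the cytoplasmic ERK phosphatase and a common readout of ERK activity, was covered nearly whole by an interval of 6500 bp, chr10:99260501-99267000. H3K27ac scored 131 and H3K4me3 133 there at both oxygen levels, and 2.05% of H3K4me3 intervals were as wide. The touching interval at the 3′ end, chr10:99267001-99270500, scored 56 in hypoxia and 55 in normoxia. It occupies the place that the hypoxia-only interval has at Spry2, but at Dusp6 it was called at both oxygen levels. The Dusp6 interval also covered the starts of the lincRNA genes Gm34921 and Gm48089, whereas no start of any gene type lay within the Spry2 interval. Another shared interval, 32.8 kb past the start, scored 58 in hypoxia and 70 in normoxia and covered the start of the noncoding gene B530045E10Rik.

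Dusp10 (ENSMUSG00000039384.8, chr1:184034381-184075636, plus strand) held 4 H3K27ac intervals. The interval over its start, chr1:184032501-184036500, scored 141 for H3K27ac and 1000 for H3K4me3 at both oxygen levels, and it also covered the start of the divergent gene 1700056E22Rik. The touching interval of 17500 bp within the gene, chr1:184036501-184054000, scored 132 in hypoxia and 82 in normoxia. This difference of 50 was the highest among the shared intervals in the members' windows, and 1.2% of the 11015 shared intervals with both scores under 1000 had a difference as large. The interval at the end of the gene, chr1:184074001-184080500, scored 106 and 103, and 4864 bp of its 6500 bp lay past the gene.

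The hypoxia-only interval of Dusp10, chr1:184081001-184085500, was 4500 bp wide and lay 46.6 kb past the start in the direction of transcription, in sequence between genes. It had no H3K4me3. Its score of 53 was at or above that of 28.4% of the hypoxia-only intervals and 4.87% of the whole hypoxia list. Only 500 bp separated it from the shared interval at the end of the gene. H3K27ac covered 32500 bp of the Dusp10 window in hypoxia and 28000 bp in normoxia, or 40.0% and 34.5%. A shared interval further out, 103 kb past the start, scored 69 and 71.

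The hypoxia-only intervals within the windows of Spry2 and Dusp10 thus lay over and past the 3′ end of the gene at Spry2 and wholly past it at Dusp10, each next to acetylated chromatin that both lists held. Across the genome, 229 of the 589 hypoxia-only intervals (38.9%) touched a normoxia H3K27ac interval and 233 (39.6%) had one within 1000 bp. Like 413 of the 589 (70.1%), the 3 intervals at Spry2 and Dusp10 carried no H3K4me3. Their GC content was 38.5% at the end of Spry2, 43.8% at the distal site and 40.0% at Dusp10, each below the median of 47.4% over hypoxia-only intervals without H3K4me3. Their ratio of observed to expected CpG was 0.303, 0.313 and 0.2, whereas the intervals over the 10 genes' usual starts, Dusp1's far start left aside, ran from 0.54 at Dusp10 to 0.934 at Spry1. The members' shared H3K27ac intervals without H3K4me3 ran from 0.174 (Spred2 and Dusp1) to 0.266 (Spred2). The low ratio was therefore not particular to the hypoxia-only intervals.

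The score allowed a comparison of the intervals that both lists held. Of the members' 23 shared H3K27ac intervals, 9 scored higher in hypoxia, 11 were equal and 3 scored lower, with differences from -7 to 50 and a median of 0. Over all 14614 shared intervals of the genome, 39.9% scored higher in hypoxia and 16.6% lower, also with a median difference of 0. Among the members these shares were 39.1% and 13.0%, close to those of the genome. Beside the interval within Dusp10, the differences above 20 were those of 26 at the far Dusp1 start, which is also the Ergic1 start, and of 21 each upstream of Spred2 and past Dusp1, which 7.94%, 11.1% and 11.1% of shared intervals under 1000 reached or passed. At the 8 acetylated starts (the usual one for Dusp1), the score was equal in 7 and higher in hypoxia at Spred2. Among these 7, Spry2 and Spred1 were at 1000 in both lists, the top of the scale, where a difference could not show. Their intervals are also among the 11 equal ones.

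**Figure D3:**
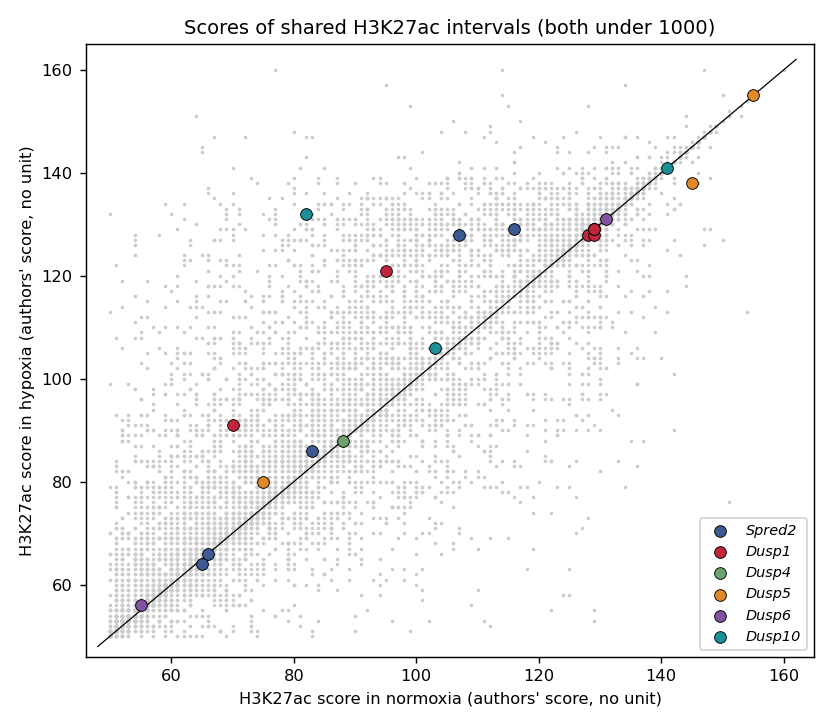
H3K27ac score in hypoxia (vertical axis) against normoxia (horizontal axis) for shared intervals with both scores under 1000. Coloured points are intervals in the windows of the 10 genes, grey points all 11015 such intervals of the genome, and the line marks equal scores. Of the coloured points, the interval within Dusp10 lies farthest above the line, at 132 against 82, and most other member intervals lie on it or near it. The starts of Spry2 and Spred1, at 1000 in both lists, are outside the axes.

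The other genes of the pathway were read in 4 lists with 84 symbols, of which 83 matched and Spry3 did not. The cascade core from receptors to ERK had H3K4me3 at a start for 26 of 26 genes and H3K27ac for 23. Other brakes, such as Ras inactivators and further phosphatases, had H3K4me3 for 18 of 19 and H3K27ac for 14. The list of ERK-responsive genes, which includes transcription factors such as Elk1 and Srf, had H3K4me3 for 22 of 22 and H3K27ac for 20. The JNK and p38 branch had them for 15 and 9 of 16. A hypoxia-only interval lay in the window of 3 cascade genes, 5 other brakes, 3 ERK-responsive genes and 0 genes of the JNK and p38 branch, or 11 of 83 genes in all, beside 4.66% of protein-coding genes. Normoxia-only intervals lay in the windows of 2 of the 83, beside 1.15%. These shares are over all protein-coding genes, whereas 66 of the 83 had both marks at a start. Among all genes with both marks there, 11.2% had a hypoxia-only or normoxia-only interval in the window, against 5.77% of all protein-coding genes. These last shares count either class, so they cannot be set directly beside the 11 or the 2 of the 83. The lists were also chosen with earlier results of these data known. Windows of the cascade core were longer than those of the members, with a median of 102 kb against 54.2 kb.

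Among the other brakes the changed interval reached the start itself in Pea15a and Pebp1. Pea15a, which holds ERK in the cytoplasm, had hypoxia-only H3K27ac over its start at chr1:172205001-172207500 with a score of 75. Pebp1, the Raf kinase inhibitor protein, had it at chr5:117285501-117288500 with 72. Both starts had H3K4me3 at both oxygen levels. Of the 10 Sprouty, Spred and Dusp genes 0 had a changed call at the start, beside 169 of 21938 protein-coding genes. The Ras inactivators Rasa1 and Dab2ip had hypoxia-only intervals beside or inside the gene, at chr13:85290001-85290500 with 57 and chr2:35697001-35704000 with 76. These lay 972 and 269 bp from the nearest start. Each of these genes had H3K27ac within 1000 bp of a start at both oxygen levels, so its call at the start did not change. For Dusp16, a JNK and p38 phosphatase, the interval at chr6:134693501-134697000 with 52 lay 18468 bp from the gene and had Borcs5 as its nearest start.

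In the cascade core the adaptor gene Gab1 had a hypoxia-only interval inside the gene, chr8:80780001-80782500, with a score of 51. Its nearest start was that of Smarca5, at 40504 bp. The interval near the adaptor gene Shc1, chr3:89397501-89410500 with 54, lay over the start of Lenep. For the receptor gene Fgfr2, intervals at chr7:130935001-130938000 with 50 and chr7:132655501-132662500 with 64 fell inside a single annotated transcript far longer than the other Fgfr2 models, and the first lay at the start of Htra1, so neither is close to the usual Fgfr2 gene. Of the ERK-responsive transcription factors, Ets1 (chr9:32698001-32702000, score 52), Fosb (chr7:19315501-19319500, score 51) and Junb (chr8:84988501-84989000, score 51, nearest the start of Hook2) had hypoxia-only intervals. Etv5 (chr16:22388001-22391000) and Fosl1 (chr19:5449501-5455000) had normoxia-only intervals, each with a score of 50, the lowest in the lists.

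**Figure D4:**
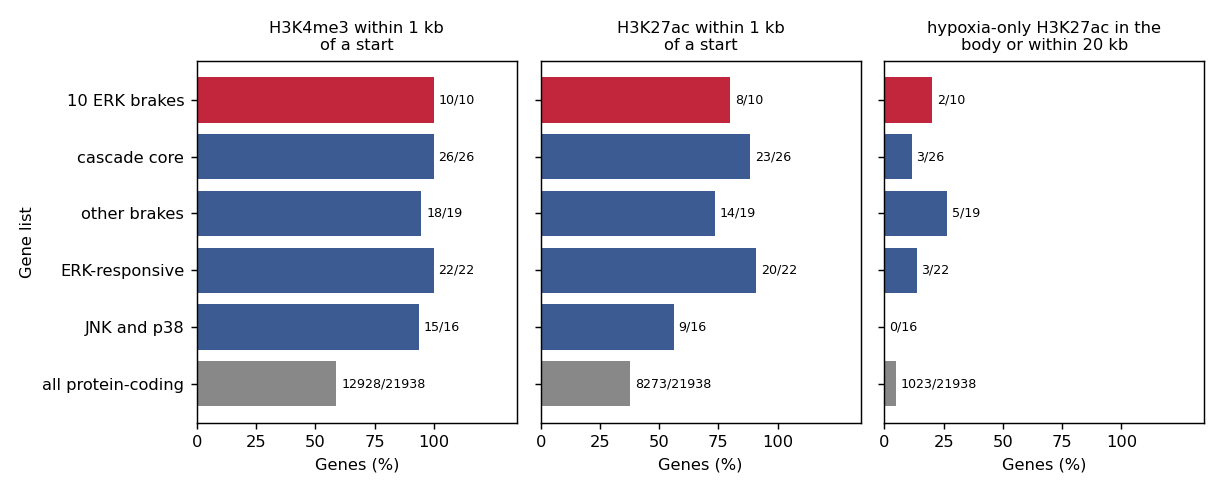
Percent of genes (horizontal axes, from 0) in each list (rows) with H3K4me3 at a start, with H3K27ac at a start and with a hypoxia-only H3K27ac interval in the gene body or within 20 kb, with gene counts beside the bars. The 10 ERK brakes have 10, 8 and 2 of 10, and all protein-coding genes 12928, 8273 and 1023 of 21938. The hypoxia-only calls at Spry2 and Dusp10 were in view when the 10 genes were listed. The bar of the 10 genes for hypoxia-only intervals is therefore a description and no comparison can be read from it.

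By the classes of marks at the start and of changed intervals in the window, the 10 genes fell into 3 patterns. Spry2 and Dusp10, with both marks at the start and a hypoxia-only interval in the window, shared their classes with 723 protein-coding genes (3.3%), themselves included. Spred1, Spred2, Dusp1, Dusp4, Dusp5 and Dusp6, with both marks and no changed interval, shared theirs with 7118 (32.4%). Spry1 and Spry4, with H3K4me3 alone, shared theirs with 4714 (21.5%). The 10 genes had a median of 2 H3K27ac intervals in windows with a median length of 54.2 kb, against 1 in 56.7 kb over all protein-coding genes.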

How the data were processed

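ChIP-seq of MSCs at 2% or 21% oxygen was analysed from the 4 peak lists that the authors deposited. According to the study's methods and processing notes, the authors used Bowtie2 to map reads to mm10 and Picard to drop duplicates, and their peak caller was chromstaR, run in its differential mode between the oxygen levels. The deposited lists give positions and a score, which is the authors' own value and whose definition is not given in the sources used here. Overlapping intervals of the lists had identical ends, on a grid of 500 bp, and the input libraries and library depths were not analysed here. The precision of a call is therefore unknown.

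Groups were taken from the sample titles. Intervals were assigned with Python 3.11.15 and pandas 2.3.3 to GENCODE M21 basic gene models with 20000 bp on each side, to transcription starts within 1000 bp, and to the nearest protein-coding start. An overlap of 1 bp with the other list made an interval shared. No test was run, since each group has 1 list. All 10 genes, each condition-specific interval in their windows or nearest Spry2 or Dusp10, and each pathway gene with a condition-specific interval are named. Sequences came from the RefSeq mm10 (GRCm38.p6) genome and promoter table. The members and the gene lists were chosen with earlier results of these data known. The assignment steps were tested on simulated intervals. Alternatives in window, threshold, overlap, joining and annotation are given in the closing section. The count over the blood cell markers is not reported here.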

Additional observations from a re-analysis of the deposited data

How the results depend on the processing

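The 8 genes with H3K27ac and the 10 with H3K4me3 at a start stayed 8 and 10 when the interval had to cover the start, when it could lie within 2500 bp, and when starts of all transcripts were used, the last chosen after seeing the data. The count of 2 condition-specific intervals in the windows was 2 with 50000 bp on each side and with all transcripts. Requiring 50% coverage for sharing could not change it, since overlapping intervals were identical. It was 1 with 5000 bp and 1 with the gene body alone, since the Dusp10 interval lies beyond the gene. It was 0 when a peak of the other list within 1000 bp counted as sharing and 0 when peaks within 1000 bp were joined, since both intervals adjoin shared ones. Without the lowest-scoring 25% of the counted list it was 0. Without that share of both lists it was 1, but this was a Dusp1 interval (91 in hypoxia, 70 in normoxia) and neither of the original ones. Of the 3 intervals nearest Spry2 and Dusp10, 2 remained with starts of all gene types or within 100000 bp. The share of genes with a condition-specific interval in the window was 5.77% of all protein-coding genes, 8.48% of those with H3K4me3 at a start and, added after seeing the data, 11.2% of those with both marks at a start. No paired analysis was possible because the lists pool both libraries of a group, and leaving out a replicate could not be done for the same reason.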
